A study of Mus musculus with 6 samples.

Results

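Transcripts of 7 genes, which encode glucose carriers, monocarboxylate carriers and a chaperone, were followed in cultured mouse CD8+ T cells. The genes were chosen by symbol and are Slc2a1, Slc2a3 and Slc2a6 (glucose carriers), Slc16a1, Slc16a3 and Slc16a6 (monocarboxylate carriers) and Bsg (a chaperone of the lactate carriers). All 7 were present among the 11922 genes of the count table, and all 7 passed the low-count filter that left 11759 genes for testing. Magnetically selected splenic CD8+ T cells of C57BL6/J mice were activated with beads carrying antibodies to CD3 and CD28 for 72 hours and then grown for another 4 days, with 100 units of interleukin-2 per ml from the start. The vehicle group received water and the AOA group 0.25 mM aminooxyacetic acid (AOA), which blocks enzymes that use pyridoxal phosphate, throughout the 7 days. Each of 3 mice gave 1 culture to each group, so the groups hold 3 libraries each and replicate numbers are mouse numbers. Oxygen during culture is not given in the labels for these libraries. Both groups were stimulated, and the comparison holds no resting cells.

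Glucose crosses the plasma membrane of T cells by facilitated diffusion through carriers of the SLC2A (GLUT) family, and activated T cells raise both its uptake and its conversion to lactate. Lactate leaves with a proton through monocarboxylate carriers (MCTs) of the SLC16A family, whose lactate carriers MCT1 and MCT4 need the membrane glycoprotein basigin, the product of Bsg, to reach the cell surface. GLUT3 has a higher affinity for glucose than GLUT1, and MCT4, which suits export from strongly glycolytic cells, has a lower affinity for lactate than MCT1. Slc2a1, Slc2a3 and Slc16a3 are known targets of the hypoxia-inducible factor HIF1, and Slc2a1 and Slc16a1 are known targets of MYC.

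Transcript levels are given in CPM, that is, counts brought to the same TMM-scaled library total, and a log2 fold change is that of AOA relative to vehicle by edgeR's quasi-likelihood test with Benjamini-Hochberg adjustment across all tested genes. Genes are called changed where that adjusted p lies under 0.05, and these p-values measure the spread over cultures of 3 mice. Total counts ran from 12881962 to 18934869 with vehicle and from 18696114 to 21997078 with AOA. Vehicle replicate 2 and AOA replicate 1 stood farthest from the other libraries of their groups, and results that turn on them are given with and without them. Of all tested genes 26.2% were called higher and 26.8% lower with AOA, 53.0% in all, and in 62.1% the 3 AOA libraries lay wholly above or wholly below the 3 vehicle libraries. Among the 7 genes 3 rose (Slc2a1, Slc16a1 and Bsg), 3 fell (Slc2a3, Slc2a6 and Slc16a6) and Slc16a3 was not called. In each of the 7 the groups did not overlap. Against this background a change of any 1 carrier is common, and the carriers differed in direction, in size and in which was most abundant. As RNA was taken from whole cultures, fewer cells that hold a transcript cannot be told apart from less of it per cell.

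Slc2a3, which encodes GLUT3, was the most abundant of the 3 glucose carriers with vehicle and fell 4.16-fold with AOA. Slc2a1, which encodes the widely expressed GLUT1, rose 1.34-fold, and with AOA it exceeded Slc2a3 per unit of gene length, though not in CPM. Slc2a6, which encodes the intracellular carrier GLUT6, was low in both groups and fell. On the monocarboxylate side Slc16a1, which encodes MCT1, rose 2.32-fold while Slc16a6, which encodes the less studied carrier MCT7, fell 1.84-fold, and Bsg rose 1.81-fold.

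**Figure D1:**
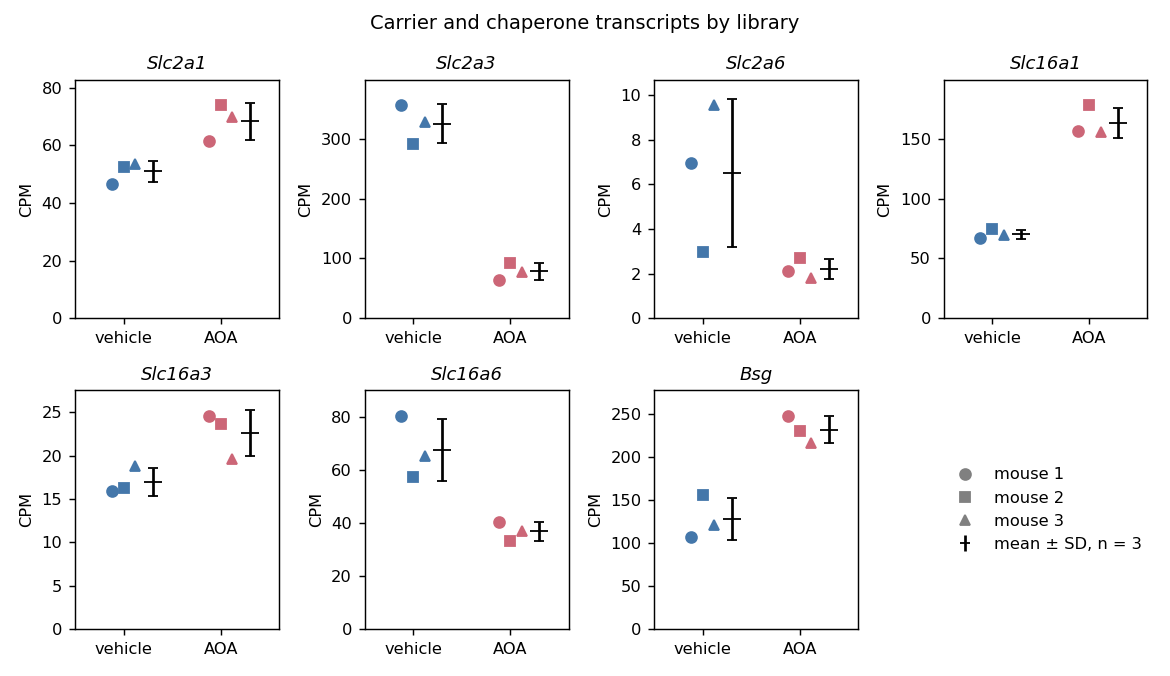
Level of each of the 7 transcripts in CPM (vertical axes, each starting at 0) in the vehicle and AOA libraries, with a symbol for each mouse and the mean ± SD of 3 libraries as a black bar. The AOA libraries lie above the vehicle libraries for Slc2a1, Slc16a1, Slc16a3 and Bsg and below them for Slc2a3, Slc2a6 and Slc16a6.

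Promoter windows of RefSeq genes (build GRCm38.p6), from 250 bases before to 50 bases after an annotated start, were matched by gene number for 4 of the 7 genes. Those of Slc2a1, Slc16a1 and Slc16a3 are shown, 5′ to 3′ on the strand of the gene, because these carriers are the ones said to answer to HIF1 or MYC. Capitals mark ACGTG or GCGTG, the cores of the hypoxia response element, and CACGTG, the E-box of MYC and MondoA, on either strand.

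Slc2a1 (chr4:119108495-119108794, plus strand): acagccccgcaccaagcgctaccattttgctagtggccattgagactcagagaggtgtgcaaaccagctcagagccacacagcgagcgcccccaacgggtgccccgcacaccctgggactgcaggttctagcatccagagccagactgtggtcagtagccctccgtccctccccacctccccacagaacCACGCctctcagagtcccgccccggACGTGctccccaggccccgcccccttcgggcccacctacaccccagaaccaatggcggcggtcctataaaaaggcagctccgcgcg

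Slc16a1 (chr3:104638414-104638713, plus strand): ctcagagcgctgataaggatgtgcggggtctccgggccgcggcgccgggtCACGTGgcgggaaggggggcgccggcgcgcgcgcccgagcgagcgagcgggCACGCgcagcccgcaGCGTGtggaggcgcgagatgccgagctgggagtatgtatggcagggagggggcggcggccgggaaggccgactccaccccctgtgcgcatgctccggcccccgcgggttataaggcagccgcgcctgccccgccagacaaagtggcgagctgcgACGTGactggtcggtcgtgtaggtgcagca

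Slc16a3 (chr11:120948817-120949116, plus strand): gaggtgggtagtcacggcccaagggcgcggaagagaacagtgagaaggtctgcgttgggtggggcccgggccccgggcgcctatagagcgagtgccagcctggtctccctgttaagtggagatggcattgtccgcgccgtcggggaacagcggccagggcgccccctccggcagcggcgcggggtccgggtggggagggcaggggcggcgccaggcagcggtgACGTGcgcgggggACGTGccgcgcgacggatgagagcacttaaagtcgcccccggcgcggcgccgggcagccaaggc

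The Slc16a3 window holds ACGTG on the strand of the gene at bases 224 and 237, with the annotated start at base 251. The Slc2a1 window holds ACGTG at base 215 and GCGTG on the opposite strand at base 190. The Slc16a1 window holds an E-box at base 51, whose letters also read as ACGTG on both strands, a further ACGTG at base 271, and GCGTG at base 117 and, on the opposite strand, at base 102. ACGTG occurred in 19.6%, GCGTG in 32.4% and CACGTG in 7.15% of all 32851 windows of the same length, and either hypoxia core in 43.8%, so that a match is common. The windows of Slc2a1, Slc16a1 and Slc16a3 have a GC content of 65.3%, 73.7% and 73.3%. Slc2a6 matched a window with GCGTG in 4 places, which is not printed.

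Slc2a3 (Entrez gene 20527) lies on chromosome 6 of GRCm38 from 122727809 to 122801640, on the minus strand, in the GENCODE M21 annotation. Its level was 356, 291 and 329 CPM in vehicle replicates 1, 2 and 3, and 64.2, 93.1 and 77.1 CPM in AOA replicates 1, 2 and 3. The lowest vehicle library was thus more than 3 times as high as the highest AOA library. The mean was 325 ± 32.9 CPM with vehicle against 78.1 ± 14.5 CPM with AOA (SD, n = 3 each), or -2.06 ± 0.17 on the log2 scale (fold change ± SE, edgeR adjusted p = 3.21e-05). Within the mice the change on the log2 CPM scale was -2.47, -1.64 and -2.09, the smallest in mouse 2, which had both the lowest vehicle and the highest AOA level. The call held under each of 13 alternative fits, with log2 fold changes between -2.20 and -1.93 and adjusted p of at most 5.86e-04. GENCODE places a processed pseudogene, Gm4482, within the span of Slc2a3 on the same strand. Only reads that mapped to 1 place were counted, and no source used here says how reads within the overlap were assigned.

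Slc2a1 (Entrez gene 20525, chromosome 4 from 119108711 to 119137983, plus strand) moved in the other direction and by less. It stood at 46.7, 52.5 and 53.7 CPM with vehicle and at 61.3, 73.9 and 69.7 CPM with AOA. The mean was 50.9 ± 3.76 and 68.3 ± 6.39 CPM (SD, n = 3 each), or 0.42 ± 0.13 on the log2 scale (fold change ± SE, edgeR adjusted p = 0.0230). The change was similar in the 3 mice, at 0.39, 0.49 and 0.37 on the log2 CPM scale. The call was lost when vehicle replicate 1 (0.39, adjusted p = 0.0834), AOA replicate 2 (0.37, adjusted p = 0.0892) or AOA replicate 3 (0.41, adjusted p = 0.0756) was left out of the edgeR fit, while the size of the change moved little. The antisense genes Gm12867 and Gm12868 overlap Slc2a1 on the opposite strand, and although the libraries were stranded, no source used here states the strand setting of the counting.

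Slc2a6 (Entrez gene 227659, chromosome 2 from 27021363 to 27027998, minus strand) rested on few reads. The vehicle libraries held 88, 47 and 176 of its reads and the AOA libraries 46, 51 and 36. In CPM these were 6.98, 2.98 and 9.55 with vehicle against 2.11, 2.70 and 1.82 with AOA, so that the vehicle libraries differed more among themselves than vehicle replicate 2 did from the AOA group. The edgeR fit put the log2 fold change at -1.56 ± 0.41 (SE, adjusted p = 0.0106). Within the mice it was -1.67, -0.14 and -2.33 on the log2 CPM scale. The call was lost without AOA replicate 1 (-1.53, adjusted p = 0.0543 by edgeR). Without vehicle replicate 2 the log2 fold change was -1.88 (adjusted p = 3.24e-04 by edgeR).

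To compare carriers with each other, CPM was divided by the deposited gene length in kb. With vehicle, Slc2a3 stood at 89.9, 73.4 and 83.0 CPM per kb and Slc2a1 at 18.1, 20.4 and 20.9 CPM per kb. With AOA, Slc2a3 stood at 16.2, 23.5 and 19.5 CPM per kb and Slc2a1 at 23.8, 28.7 and 27.1 CPM per kb. Slc2a3 was therefore the higher of the pair in 3 of 3 vehicle libraries, by 4.14-fold on average, and Slc2a1 in 3 of 3 AOA libraries, by 1.36-fold. Of the summed level of the 3 carriers, Slc2a3 made up 80.8%, 77.1% and 76.6% with vehicle and 39.5%, 43.96% and 41.1% with AOA. Slc2a1 made up 16.3%, 21.4% and 19.3% with vehicle and 58.1%, 53.7% and 57.1% with AOA. Slc2a6 made up between 1.47% and 4.13% in every library. The order with AOA depends on the scaling by length, since in CPM alone Slc2a3 remained above Slc2a1 in each AOA library and its mean share was 52.4%.

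The change in the ratio of these carriers does not depend on their lengths, which cancel in a comparison between groups. Shares, sums and percentiles do depend on length. The log2 ratio of Slc2a1 to Slc2a3 rose by 2.49 on average, a 5.62-fold shift, and by 2.87, 2.14 and 2.47 in mice 1, 2 and 3. An exact two-sided permutation test over the libraries gave p = 0.1 (adjusted p = 0.114 over 8 pairs of genes), where 3 against 3 libraries cannot give less than 0.1. For the share of Slc2a3 the same exact permutation test gave p = 0.1. These tests set the pairing by mouse aside. An exact sign-flip test within mice gave p = 0.25 for the ratio and for the share, the least that 3 pairs can give. The summed level of the 3 glucose carriers was 105 ± 8.59 CPM per kb (SD, n = 3) with vehicle and 47.3 ± 6.23 CPM per kb (SD, n = 3) with AOA, and the libraries did not overlap. Against all genes of the table, the mean level per length of Slc2a3 went from percentile 93.0 to percentile 66.4 and that of Slc2a1 from 67.9 to 73.9.

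**Figure D2:**
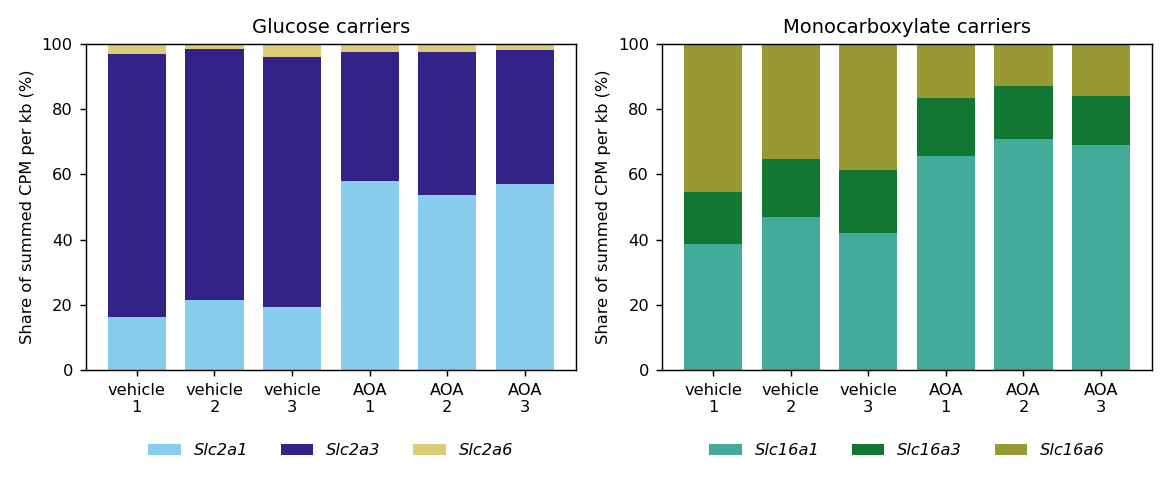
Share (vertical axis, percent) of each of 3 glucose carriers (left) and 3 monocarboxylate carriers (right) in their summed CPM per kb, with 1 bar for each library. Slc2a3 makes up 76.6% to 80.8% of the glucose carriers with vehicle and 39.5% to 43.96% with AOA, and Slc16a1 makes up 38.7% to 47.0% of the monocarboxylate carriers with vehicle and 65.7% to 70.9% with AOA.

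Of the 3 monocarboxylate carriers Slc16a1 (Entrez gene 20501, chromosome 3 from 104638668 to 104658462, plus strand) changed most. Its level was 67.1, 74.4 and 69.8 CPM with vehicle and 156, 178 and 156 CPM with AOA, with little spread in either group. The mean rose from 70.4 ± 3.69 to 164 ± 12.7 CPM (SD, n = 3 each), or 1.22 ± 0.13 on the log2 scale (fold change ± SE, edgeR adjusted p = 9.41e-05). The mice gave 1.22, 1.26 and 1.16 on the log2 CPM scale. The call held in each of 13 alternative fits, with log2 fold changes between 1.16 and 1.29.

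Slc16a6 (Entrez gene 104681, chromosome 11 from 109450855 to 109473598, minus strand) fell. Its level was 80.2, 57.1 and 65.2 CPM with vehicle and 40.3, 33.0 and 36.9 CPM with AOA, or -0.88 ± 0.16 on the log2 scale (fold change ± SE, edgeR adjusted p = 0.00169). The lowest vehicle library lay above the highest AOA library, and the change within the mice was -0.99, -0.79 and -0.82 on the log2 CPM scale. The call held in each of 13 alternative fits. Amz2 and Arsg, on the opposite strand, overlap Slc16a6.

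Slc16a3 (Entrez gene 80879, chromosome 11 from 120948480 to 120960868, plus strand), which encodes MCT4, was not called. Its level was 15.9, 16.2 and 18.8 CPM with vehicle and 24.6, 23.6 and 19.7 CPM with AOA. The groups did not overlap, but vehicle replicate 3 and AOA replicate 3, both from mouse 3, were close. The edgeR fit put the log2 fold change at 0.41 ± 0.16 (SE, adjusted p = 0.0528), and within the mice it was 0.63, 0.54 and 0.07 on the log2 CPM scale. The log2 fold change of Slc2a1, 0.42, was close to it and lay on the other side of the threshold. With total counts alone for scaling, with median-of-ratios size factors or with no low-count filter Slc16a3 passed, at an adjusted p of 0.0447, 0.0483 and 0.0396 in edgeR.

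Bsg (Entrez gene 12215, chromosome 10 from 79704491 to 79711969, plus strand), whose product carries MCT1 and MCT4 to the cell surface, rose. Its level was 107, 156 and 121 CPM with vehicle and 248, 231 and 217 CPM with AOA, or 0.86 ± 0.16 on the log2 scale (fold change ± SE, edgeR adjusted p = 0.00210). Vehicle replicate 2 was the highest of its group and still lay below every AOA library. The change within the mice was 1.21, 0.57 and 0.84 on the log2 CPM scale.

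Per unit of length Slc16a1 and Slc16a6 shared the first place with vehicle. Slc16a1 stood at 15.1, 16.8 and 15.8 CPM per kb and Slc16a6 at 17.8, 12.7 and 14.5 CPM per kb, with Slc16a1 higher in 2 of 3 libraries and ranges that overlapped. Slc16a3 was below both, at 6.16, 6.30 and 7.29 CPM per kb. With AOA Slc16a1 stood alone at 35.3, 40.2 and 35.2 CPM per kb, while Slc16a3 (9.54, 9.17 and 7.63 CPM per kb) and Slc16a6 (8.93, 7.33 and 8.18 CPM per kb) overlapped. The share of Slc16a1 among the 3 carriers was 38.7%, 47.0% and 42.0% with vehicle and 65.7%, 70.9% and 69.0% with AOA. That of Slc16a6 was 39.8% ± 5.18 (SD, n = 3) with vehicle and 15.2% ± 1.99 (SD, n = 3) with AOA. The share of Slc16a3 was 17.6% ± 1.84 (SD, n = 3) with vehicle and 16.3% ± 1.40 (SD, n = 3) with AOA, a difference within the spread of the libraries (exact two-sided permutation test, p = 0.5).

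The 3 monocarboxylate carriers summed to 37.4 ± 1.68 CPM per kb (SD, n = 3) with vehicle and 53.9 ± 2.85 CPM per kb (SD, n = 3) with AOA, opposite in direction to the sum of the glucose carriers. The log2 ratio of Slc16a1 to Slc16a6 rose by 2.08 and that of Slc16a1 to Slc16a3 by 0.80. Per unit of length Bsg exceeded Slc16a1 in every library, by 4.54-fold on average with vehicle and by 3.58-fold with AOA, and it exceeded Slc16a3 by 10.98-fold and 15.1-fold. In CPM alone Bsg was closer to Slc16a1, at 128 against 70.4 with vehicle and 232 against 164 with AOA. Of the 8 pairs of genes compared, 7 had ratios that did not overlap between the groups. Each of these gave an exact permutation p = 0.1 (adjusted p = 0.114). The pairs reuse the 7 genes, none of which overlapped singly. Over all tested genes 62.1% did not overlap singly, and no such share was taken over other pairs. Within the mice some changes of the ratios were near 0. They were 0.014 in mouse 1 for the log2 ratio of Slc16a1 to Bsg and -0.027 in mouse 2 for that of Slc16a3 to Bsg. The ratio of Slc2a3 to Slc2a6 was the exception, with a log2 change of -0.65 (exact permutation p = 0.3).

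Over all 7 genes the order by level per length with vehicle was Slc2a3, Bsg, Slc2a1, Slc16a1, Slc16a6, Slc16a3 and Slc2a6. The neighbours Slc2a3 and Bsg, and Slc16a1 and Slc16a6, overlapped in their 3 libraries. With AOA the order was Bsg, Slc16a1, Slc2a1, Slc2a3, Slc16a3, Slc16a6 and Slc2a6, and the only neighbours that overlapped were Slc16a3 and Slc16a6. Slc2a1 and Slc2a3 were neighbours in that order and did not overlap, by 23.8 against 23.5 CPM per kb for the closest libraries. Slc2a3 went from the first to the 4th place.

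**Figure D3:**
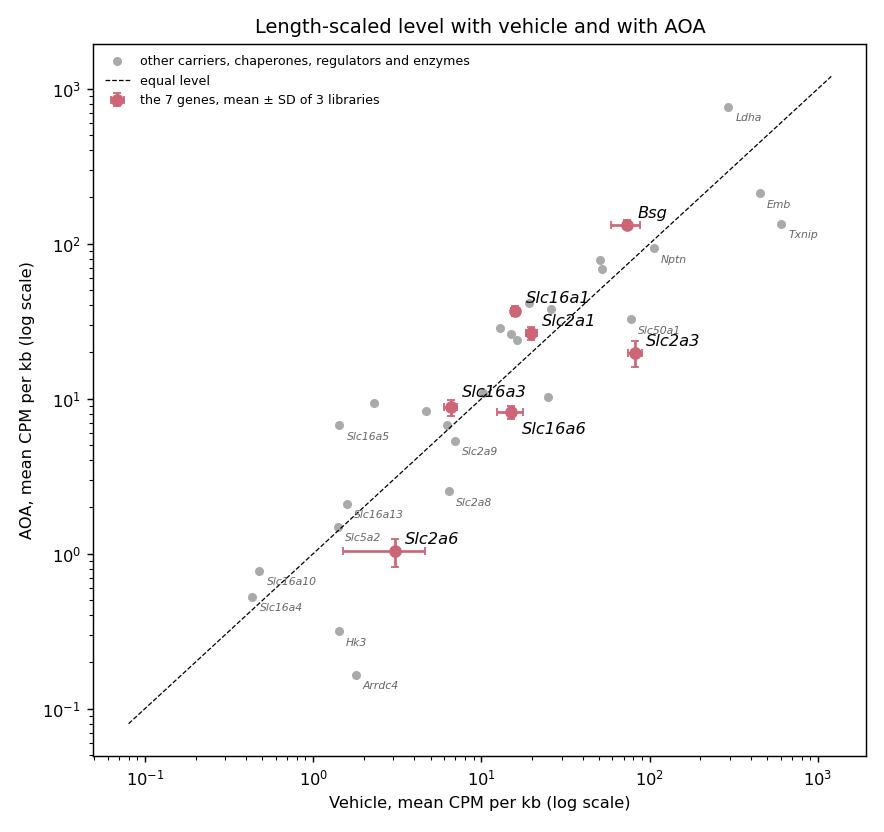
Mean level per length with AOA (vertical axis) against vehicle (horizontal axis), in CPM per kb on log scales, for the 7 genes (red, mean ± SD of 3 libraries) and for 26 related genes (grey, part of them named); the dashed line marks equal levels. Slc2a3, Slc16a6 and Slc2a6 lie below the line and Slc16a1, Bsg, Slc2a1 and Slc16a3 above it, with Bsg the highest of the 7 with AOA at 132 CPM per kb.

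Further genes of the same families, or of sugar, pyruvate and lactate handling, were taken from lists. Of 9 other members of the SLC2A family 2 were in the table used here. Slc2a8, which encodes the intracellular carrier GLUT8, fell from 13.4 ± 3.14 to 5.25 ± 0.364 CPM (SD, n = 3 each), a log2 fold change of -1.35 (adjusted p = 0.00113 by edgeR). Slc2a9, a urate carrier, had a log2 fold change of -0.38 and was not called (adjusted p = 0.117 by edgeR), although it was called without vehicle replicate 2 (-0.52, adjusted p = 0.0124). Of 10 sodium-coupled and other sugar carriers 2 were in the table. Slc50a1, which encodes the sugar carrier SWEET1, known mainly from the Golgi, stood at 82.0, 71.3 and 83.7 CPM with vehicle and at 34.7, 30.2 and 35.1 CPM with AOA. It fell by 1.24 on the log2 scale (standard error 0.13, adjusted p = 1.12e-04 by edgeR). Per length it was at 77.3 ± 6.58 CPM per kb (SD, n = 3) with vehicle, beside Slc2a3, and at 32.6 ± 2.66 CPM per kb (SD, n = 3) with AOA, above both Slc2a1 and Slc2a3. In CPM alone it was below both with AOA (33.3 against 68.3 and 78.1), so this order rests on the division by length. Slc5a2 had a log2 fold change of 0.09 and about 3 CPM in both groups.

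Of 10 other SLC16A genes read here 4 were in the table, of which 1 rose and 3 were not called. Slc16a5 (Entrez gene 217316), a carrier of the same family, had 4.13, 4.06 and 4.78 CPM with vehicle and 24.8, 15.6 and 20.4 CPM with AOA, or 2.23 ± 0.22 on the log2 scale (fold change ± SE, edgeR adjusted p = 7.62e-05). Among the carriers named here its rise was the largest, and with AOA its level per length, 6.72 ± 1.53 CPM per kb (SD, n = 3), came near those of Slc16a3 and Slc16a6. Slc16a10, a carrier of aromatic amino acids, had a log2 fold change of 0.69 (adjusted p = 0.115 by edgeR) and passed once the mouse entered as a block (0.76, adjusted p = 0.0454) and also without vehicle replicate 2 (1.17, adjusted p = 0.00472). Slc16a4 and Slc16a13 had log2 fold changes of 0.29 and 0.40, neither of them called.

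Embigin and neuroplastin are relatives of basigin that can also accompany monocarboxylate carriers. Emb stood at 1498, 564 and 1479 CPM with vehicle and at 533, 602 and 533 CPM with AOA. Vehicle replicate 2 lay within the AOA range, unlike the other vehicle libraries. The log2 fold change was -1.09 (adjusted p = 0.0192 by edgeR). The call was lost without vehicle replicate 1 (adjusted p = 0.0764), vehicle replicate 3 (0.0668), AOA replicate 1 (0.0821) or AOA replicate 3 (0.0660). Without vehicle replicate 2 the log2 fold change was -1.39 (adjusted p = 9.05e-05 by edgeR). Nptn was not called (-0.17, adjusted p = 0.291 by edgeR). Basigin was therefore the 1 chaperone of the 3 that rose, and Emb remained the most abundant of them in CPM per kb, at 212 ± 15.1 (SD, n = 3) with AOA.

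Pyruvate enters mitochondria through a carrier of 2 subunits, and both of its genes rose. Mpc1 went from 11.6 ± 0.333 to 26.0 ± 6.45 CPM (SD, n = 3 each), a log2 fold change of 1.16 (adjusted p = 0.00117 by edgeR), and Mpc2 from 16.5 ± 1.07 to 35.4 ± 11.97 CPM, a log2 fold change of 1.10 (adjusted p = 0.00337). AOA replicate 1 was the highest library for both.

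Of 9 regulators of glucose uptake 4 rose, 3 fell and 2 were not called. The 3 that fell were Txnip, Arrdc4 and Mlxip. Txnip, whose product draws GLUT1 from the cell surface and whose transcription follows glucose through MondoA, stood at 2137, 916 and 2024 CPM with vehicle and at 441, 287 and 401 CPM with AOA. The edgeR fit put the log2 fold change at -2.17 ± 0.32 (SE, adjusted p = 5.84e-04). The related arrestin Arrdc4 fell by 3.43 and Mlxip, which encodes MondoA itself, by 1.28 on the log2 scale (adjusted p of 6.43e-04 and 1.90e-04 by edgeR). Vehicle replicate 2 was the lowest of its group for all 3 and yet lay above every AOA library. Vps35, Vps26a and Vps29, which form the retromer that returns GLUT1 to the surface, rose by 0.63, 0.56 and 0.79 on the log2 scale (adjusted p of 0.0150, 0.0145 and 0.0131). Vps35 was not called without vehicle replicate 1 (adjusted p = 0.0578), nor Vps26a without vehicle replicate 3 (adjusted p = 0.0513). Mlx, the partner of MondoA, rose by 0.53 (adjusted p = 0.0255) but was not called without vehicle replicate 1, vehicle replicate 3 or AOA replicate 1 (adjusted p of 0.0837, 0.0722 and 0.0623). Snx27 and Tbc1d5 were at 0.08 and 0.12 on the log2 scale and were not called.

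Enzymes that act directly on imported glucose or on lactate were read beside the carriers. Ldha, which encodes the main subunit of lactate dehydrogenase, rose from 566 ± 53.9 to 1477 ± 198 CPM (SD, n = 3 each), a log2 fold change of 1.38 (adjusted p = 2.25e-04 by edgeR), close in size to that of Slc16a1. Ldhb rose by 2.03 from a level of 2.99 ± 0.341 CPM (SD, n = 3). Hk1, the most abundant hexokinase transcript, was not called (0.40, adjusted p = 0.128 by edgeR) but was called without AOA replicate 1 (0.62, adjusted p = 0.00367). Hk2 rose by 0.83 (adjusted p = 0.0330), a call that was lost without vehicle replicate 1, vehicle replicate 3, AOA replicate 2 or AOA replicate 3 (adjusted p of 0.106, 0.0983, 0.107 and 0.0837). The Hk2 groups overlapped, with vehicle replicate 2 at 38.5 CPM and AOA replicate 1 at 35.2 CPM, and leaving out the former raised the log2 fold change to 1.28 (adjusted p = 6.52e-04 by edgeR). Hk3 fell by 2.16, from 4.63 ± 0.344 to 1.03 ± 0.365 CPM (SD, n = 3 each). Over the 26 related genes tested, 10 rose, 7 fell and 9 were not called, where 26.2% of all tested genes rose and 26.8% fell, with a median log2 fold change of 0.34 against -0.02 over all tested genes.

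**Figure D4:**
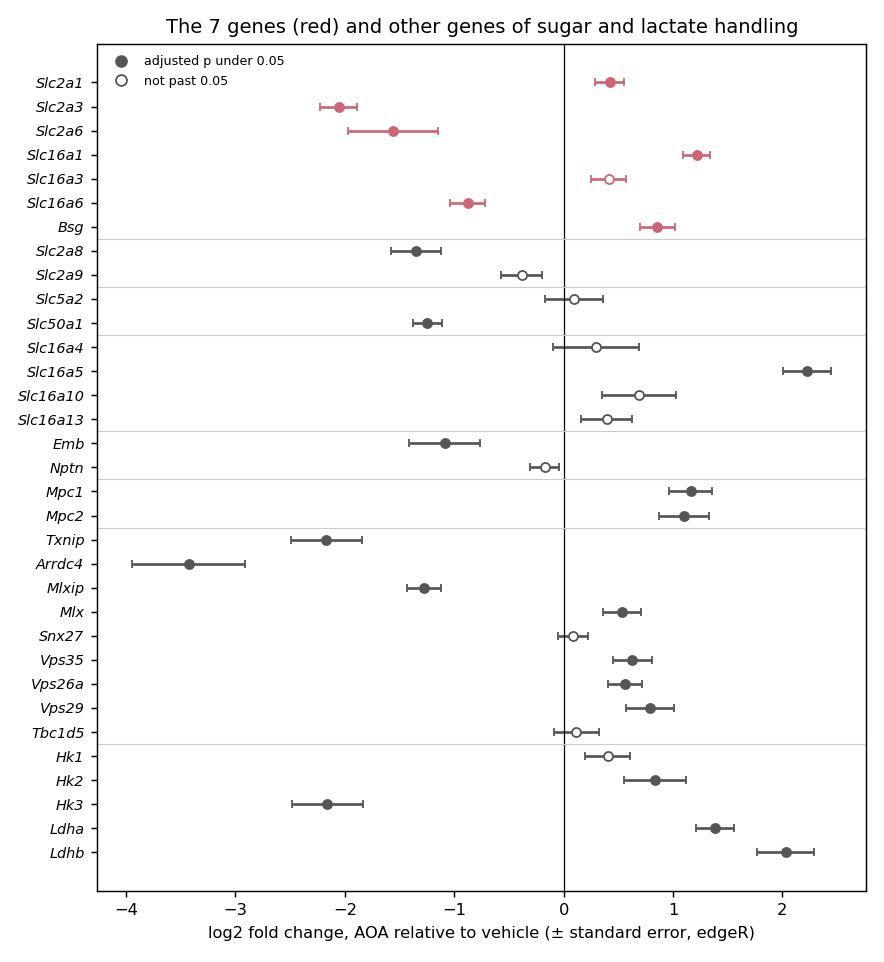
Log2 fold change of AOA relative to vehicle (horizontal axis, ± standard error by edgeR) for the 7 genes (red) and the 26 related genes (grey), grouped by list between thin lines. Filled points have an adjusted p under 0.05 and open points do not. Slc2a3 has the largest fall among the 7 genes at -2.06, and Slc16a1 the largest rise at 1.22.

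The log2 CPM profiles most like those of the carriers over the 6 libraries, by Pearson r among 8761 genes of at least 10 CPM, were those of Gmps, Tmed10 and Ube2j1 for Slc2a1 (r of 0.997, 0.995 and 0.992) and of Gm19897, Chd7 and Dlgap4 for Slc2a3 (r of 1.000, 0.999 and 0.999). For Slc16a1 they were Eri1, Lrrc59 and Acsl1 (r of 0.999, 0.999 and 0.998), and for Slc16a3 they were Prss16, Gtf2e2 and Cyb5a (r of 0.990, 0.976 and 0.976). These values describe 6 libraries in 2 groups, where genes that differ between the groups share high r.

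Markers of CD8 T cells and of other spleen cells were read in the same libraries. Cd8a stood at 788, 654 and 914 CPM with vehicle and at 1670, 1455 and 1700 CPM with AOA, and Cd8b1 rose by 0.64 on the log2 scale. Cd2 and Cd5 fell by 0.61 and 0.88 (adjusted p of 0.0112 and 0.0132 by edgeR), Cd3e, Cd3d, Cd3g and Lck were not called, and the median over the 8 markers was -0.20. The 8 CD8 T cell markers summed to between 4341 and 5381 CPM with vehicle and between 5251 and 6124 CPM with AOA. The 3 CD4 T cell markers summed to 154 to 205 CPM with vehicle and 32.4 to 53.1 CPM with AOA. Cd4 and Zbtb7b fell, with log2 fold changes of -3.08 and -2.17, and Foxp3 was at 0.36 and not called. The 4 myeloid markers in the table summed to 55.5 to 67.5 CPM with vehicle and 4.18 to 7.82 CPM with AOA. Itgam was at 42.8, 52.9 and 40.5 CPM with vehicle and at 0.598, 2.11 and 0.908 CPM with AOA, a log2 fold change of -5.25 (adjusted p = 1.61e-05 by edgeR), while Lyz2 reached at most 1.16 CPM and Cd14 at most 1.03 CPM. Cd68 was at 15.2, 13.3 and 14.7 CPM with vehicle and at 3.31, 4.49 and 3.68 CPM with AOA, a log2 fold change of -1.91 (adjusted p = 1.10e-04 by edgeR). The 3 NK cell markers summed to 145 to 308 and 128 to 213 CPM, mostly Eomes, with Ncr1 at 2.35 CPM or less. Eomes had a log2 fold change of 0.04 and was not called (adjusted p = 0.895 by edgeR). Klrb1c fell from 41.7, 111 and 20.1 CPM to 6.99, 11.05 and 3.38 CPM, a log2 fold change of -3.02 (adjusted p = 0.00310 by edgeR), with vehicle replicate 2 the highest. The 4 B cell markers summed to 12.6 to 16.6 and 22.6 to 30.7 CPM, mostly Cd79b, which rose by 1.01 on the log2 scale (adjusted p = 0.00172 by edgeR). The 7 erythroid markers were not analysed here. With AOA the sums of the CD4 and myeloid markers were lower and that of the B cell markers was higher. The sums of the CD8 T cell and NK markers overlapped between the groups. The part of these markers in the results was not tested.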

How the data were processed

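CD8+ T cell RNA of 3 vehicle and 3 AOA cultures was prepared by the authors as stranded messenger RNA libraries, sequenced in paired-end mode and aligned with STAR. The deposited table holds raw counts per gene of reads that mapped to 1 place, beside Entrez numbers, symbols and gene lengths. The processing notes of the submitters name mm10 and featureCounts, while no source used here gives the annotation or a gene filter. No per-sample column was left without a sample.

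Counts were compared in R 4.3.3 with edgeR 4.0.16 (filterByExpr with a minimum count of 10, TMM, robust quasi-likelihood test). Levels between genes used CPM divided by the deposited length, and log2 CPM a prior count of 2. Ratios and shares were compared by exact permutation with scipy 1.17.1, and by exact sign-flips within mice. Alternatives were DESeq2 1.42.0, limma 3.58.1 (voom), other size factors, total counts only, no filter, at least 10 CPM in 3 libraries, a minimum log2 change of 1 in size, each library left out, and a replicate block for the mouse. The pairing comes from the mouse donor in the labels. Deviations from the group means correlated within mice, across genes that are not independent replicates, with r of 0.0868, 0.189 and 0.194. Replicates differed by more than sampling noise (chi-square per gene of 10.0 to 70.9). Fits were tested on simulated data. The 7 genes, lists, markers, motifs and the rule for named genes (every listed gene that passed the filter, and the 3 genes most like each of 4 carriers) were chosen with earlier results of these data known. Gene positions are from GENCODE M21 (GRCm38, the same build as mm10) and promoters from RefSeq. The table of promoters used here gave no window for Slc2a3, Slc16a6 or Bsg. A listed carrier gene is not reported here.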

Additional observations from a re-analysis of the deposited data

How the results depend on the processing

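Slc2a3, Slc16a1, Slc16a6 and Bsg kept their direction in every alternative, and their calls in all but the minimum log2 change of 1, which Slc16a6 and Bsg did not reach. Slc2a1 and Slc2a6 kept their direction, but with each library left out the log2 fold change of Slc2a1 ranged from 0.37 to 0.50 and that of Slc2a6 from -1.88 to -1.13, and the calls were lost without the libraries named above. Slc16a3 passed with no low-count filter (0.45), with total counts alone (0.43) and with median-of-ratios size factors (0.42). Leaving out libraries gave 2 to 3 of the 7 genes higher and 2 to 3 lower. In the same fits 2519 to 3499 of all genes were higher and 2433 to 3297 lower, of 11803 to 11847 tested. A minimum log2 change of 1 in size left, by construction, 1 of the 7 higher and 2 lower, and 3081 genes called in all, 1418 higher and 1663 lower. With the mouse as a replicate block no call among the 7 genes changed, and 2 other SLC16A genes were called higher, where Slc16a10 joined Slc16a5. Without division by length the share of Slc2a3 was 84.9% with vehicle and 52.4% with AOA, and that of Slc16a3 was 10.98% and 10.1%. The log2 ratio of Slc16a1 to Slc16a6 changed by 1.92 to 2.24 with each library left out. Leaving out libraries gave counts of 1 to 2 lower among other SLC2A genes, 1 to 2 higher among other SLC16A genes, 0 to 1 lower among the other chaperones and 2 to 4 higher among the regulators of uptake. At 10 CPM in 3 libraries Slc2a6 was not tested, which left 2 of the 7 lower, and neither was Hk3, which left 0 lower among the enzymes. With each library left out the uncalled log2 fold change of Slc5a2 ranged from -0.021 to 0.22 and that of Tbc1d5 from -0.019 to 0.32. The cause of these shifts was not tested. Among the 7 genes depth limits Slc2a6 most, with 36 to 176 counts in a library.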
